A study of Homo sapiens with 8 samples.

Results

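Binding of p53 was examined at 6 loci of its target genes with roles in metabolism and redox balance: SESN1, SESN2, TIGAR, FDXR, TP53I3 and GLS2. Their members are all peaks that share at least 1 bp with a fixed window around each gene on build hg19: chr6:109297000-109427000 for SESN1, chr1:28575000-28620000 for SESN2, chr12:4420000-4480000 for TIGAR, chr17:72848000-72880000 for FDXR, chr2:24290000-24317000 for TP53I3 and chr12:56854000-56893000 for GLS2. The windows held 78 of the 97582 peaks in the lists of 4 chromatin immunoprecipitation sequencing (ChIP-seq) libraries. Merged where they overlapped, these peaks formed 42 of 63890 sites. The windows were set by position and not by any peak, and a window can also hold neighbouring genes.

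The libraries came from 293T cells, a line made from human embryonic kidney cells that expresses the SV40 large T antigen, a viral protein that binds and stabilises p53. Cells were given doxorubicin at 0.5 µg/ml (Dox), a topoisomerase poison that breaks DNA, or 20 µl of phosphate-buffered saline as the vehicle (PBS), for 24 h, and p53 was precipitated with the monoclonal antibody 1C12. Each condition had 2 ChIP libraries, with replicate 1 from passage 3 and replicate 2 from passage 5, and the 4 input samples were not analysed here. The comparison asks how p53 occupancy at baseline relates to that after DNA damage. A peak call alone is not proof of p53 binding.

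p53 is a transcription factor that binds DNA as a tetramer, at a site made of a pair of 10-base sequences. Besides its genes for arrest and apoptosis it induces genes that alter metabolism and oxidant levels. SESN1 and SESN2 encode sestrins, stress proteins that restrain the growth kinase mTORC1 and help to limit peroxides. TIGAR encodes a phosphatase that lowers fructose-2,6-bisphosphate and so directs glucose toward the pentose phosphate pathway, a source of NADPH. GLS2 encodes a mitochondrial glutaminase, which supplies glutamate for glutathione. FDXR encodes ferredoxin reductase, which passes electrons from NADPH in the mitochondrion, and TP53I3 (PIG3) encodes a quinone oxidoreductase tied to the formation of reactive oxygen species.

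The promoters of the 6 genes were searched for the p53 site, since this is the sequence the factor recognises. RefSeq promoters (GRCh38.p14, from 250 bases before to 50 bases after each gene start) matched all 6 genes, with 9 entries in all. The motif was the p53 consensus full site: 20 bases, both 10-base units with CNNG at the centre and no spacer, up to 3 mismatches elsewhere. The unit reads the same on both strands. Matches were found in 3 of the 9 entries (33.3%), 1 each of SESN1, FDXR and GLS2, against 392 of 35116 promoters of the same length (1.12%). The matched site is in capitals, and the sequence is shown 5′ to 3′ on the gene's strand. All 3 genes lie on the minus strand, and the SESN1 entry is 1 of 3 starts listed for that gene. Another FDXR entry, chr17:74868704-74869003, had no match.
SESN1 (chr6:109008939-109009238, the 250 bases before the start): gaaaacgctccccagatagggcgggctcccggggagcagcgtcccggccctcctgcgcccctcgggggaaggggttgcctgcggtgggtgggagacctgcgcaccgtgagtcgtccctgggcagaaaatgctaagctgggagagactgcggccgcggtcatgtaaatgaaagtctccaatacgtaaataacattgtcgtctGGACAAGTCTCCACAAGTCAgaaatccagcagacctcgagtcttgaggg
FDXR (chr17:74872945-74873244, the 250 bases before the start): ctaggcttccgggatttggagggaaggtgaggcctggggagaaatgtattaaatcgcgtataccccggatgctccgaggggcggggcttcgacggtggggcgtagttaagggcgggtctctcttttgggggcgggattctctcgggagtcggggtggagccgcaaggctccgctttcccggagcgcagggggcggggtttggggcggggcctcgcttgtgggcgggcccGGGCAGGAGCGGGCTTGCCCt
GLS2 (chr12:56488112-56488411, around the match): gccggAGGCTTGCTGGGGCATGCGCt
The SESN1 and FDXR matches had 3 mismatches, and each held 1 unit with none, GGACAAGTCT in SESN1 and GGGCTTGCCC in FDXR. Such a perfect unit stood in 6.63% of all promoters. The GLS2 match, with 2 mismatches, lay 30 bases into the transcribed part. No match at this setting was found in the listed promoters of SESN2, TIGAR or TP53I3, which says only that these letters are not in those windows. Among 15 other p53 targets of metabolism and redox balance, 10 had promoters in the table. GPX1, a glutathione peroxidase, and PANK1, a kinase of coenzyme A synthesis, each had a match, so that 2 of 19 entries (10.5%) held one. These promoters are on GRCh38 and the peaks on hg19, so no peak was placed relative to a promoter or a motif, and the sequence under the peaks was not analysed here.

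p53 peaks were called at all 6 loci in both conditions, though not in every library. Dox replicates 1 and 2 and PBS replicate 2 had a peak in 6 of 6 windows, and PBS replicate 1, the shortest list, in 4 of 6. The windows without a peak were those of TIGAR and FDXR in PBS replicate 1. Across the genome, consecutive windows of 42 kb, the median length of the 6, held a peak in 28.3% and 14.1% of cases in Dox replicates 1 and 2 and in 10.5% and 18.8% in PBS replicates 1 and 2. This background includes gene-poor sequence, and genes as such were not used as a background. The 6 windows held 75.1, 60.1, 36.0 and 63.1 peaks per Mb in the same order of libraries, against 15.8, 5.64, 3.83 and 7.79 over the genome. These pooled densities do not describe each locus. SESN2, with 45 of the 333 kb, held 29 of the 78 peaks, and SESN1, with 130 kb, held 6. The SESN1 window is also longer than the 42 kb used for the background. Read depth is not given in the lists.

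The number of peaks did not separate the conditions. The 6 windows held 25 and 20 peaks in Dox replicates 1 and 2 and 12 and 21 peaks in PBS replicates 1 and 2, so the ranges overlapped. The mean was 22.5 ± 3.54 peaks with Dox, against 16.5 ± 6.36 with PBS (SD of 2 libraries each). A two-sided exact permutation test gave p = 0.667, and the smallest p it can give is 0.333. The difference of Dox and PBS was 13 peaks at passage 3 (replicate number 1) and -1 at passage 5 (number 2). Counted by locus, 6 and 6 of the loci had a peak with Dox, against 4 and 6 with PBS (two-sided exact permutation p = 1). When each list was limited to its 11304 peaks of smallest p, the windows held 6 and 16 peaks for Dox and 12 and 9 for PBS, and the difference of the means fell from 6 to 0.5. The differences within replicate numbers 1 and 2 were then -6 and 7.

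**Figure D1:**
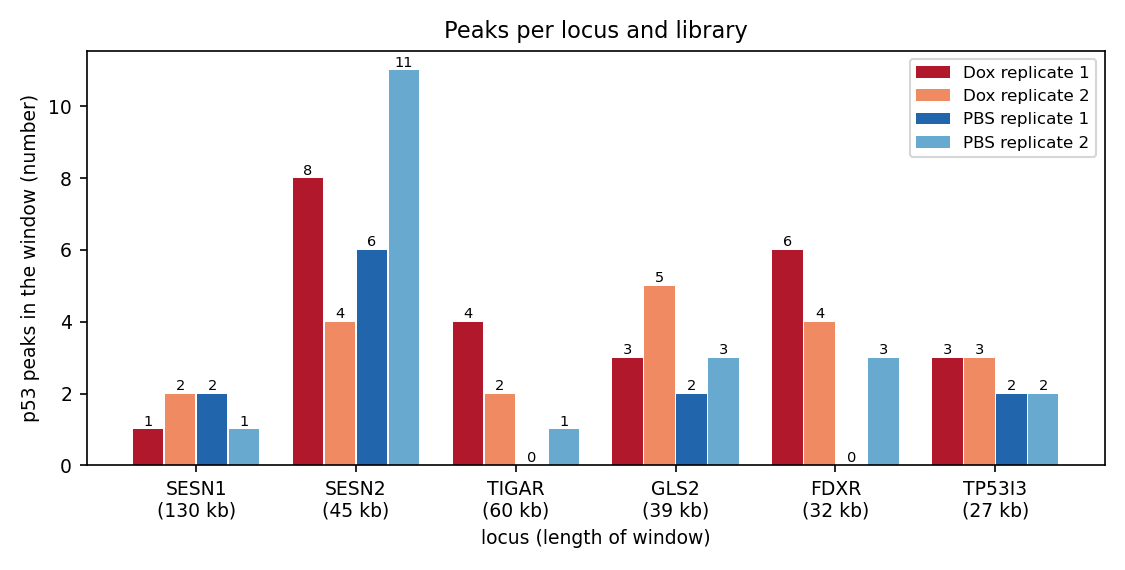
Number of p53 peaks (vertical axis) in the window of each locus (horizontal axis, with window length in kb), 1 bar per library. Over the 4 libraries together SESN2 held the most peaks, 29, with 4 to 11 per library, and the TIGAR and FDXR windows held 0 in PBS replicate 1.

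Most of these peaks were weak. Of the 78 peaks, 73 had a q above 0.05, and 66 had a −log10 q of 0. Such weak peaks also made up most of the whole lists, with a −log10 q of 0 in 86.5% and 84.4% of the Dox peaks and 92.6% and 78.8% of the PBS peaks of replicates 1 and 2. A q of at most 0.05 was reached by 2 of 25 in Dox replicate 1, where 3.65% of the whole list passed, 1 of 20 in Dox replicate 2 (4.84% of the list), 0 of 12 in PBS replicate 1 (2.56%) and 2 of 21 in PBS replicate 2 (5.84%). All 5 lay at SESN2 or TP53I3. The median −log10 p of the peaks in the windows was 2.03, 3.21, 2.24 and 2.56 in Dox replicates 1 and 2 and PBS replicates 1 and 2, beside 2.03, 2.43, 2.37 and 2.62 over the whole lists. Fold enrichments below are the authors' own, at the summit over the caller's local background, and like the p they depend on each library and its control. Values of different lists stand side by side as a description, and no difference between conditions is read from them.

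**Figure D2:**
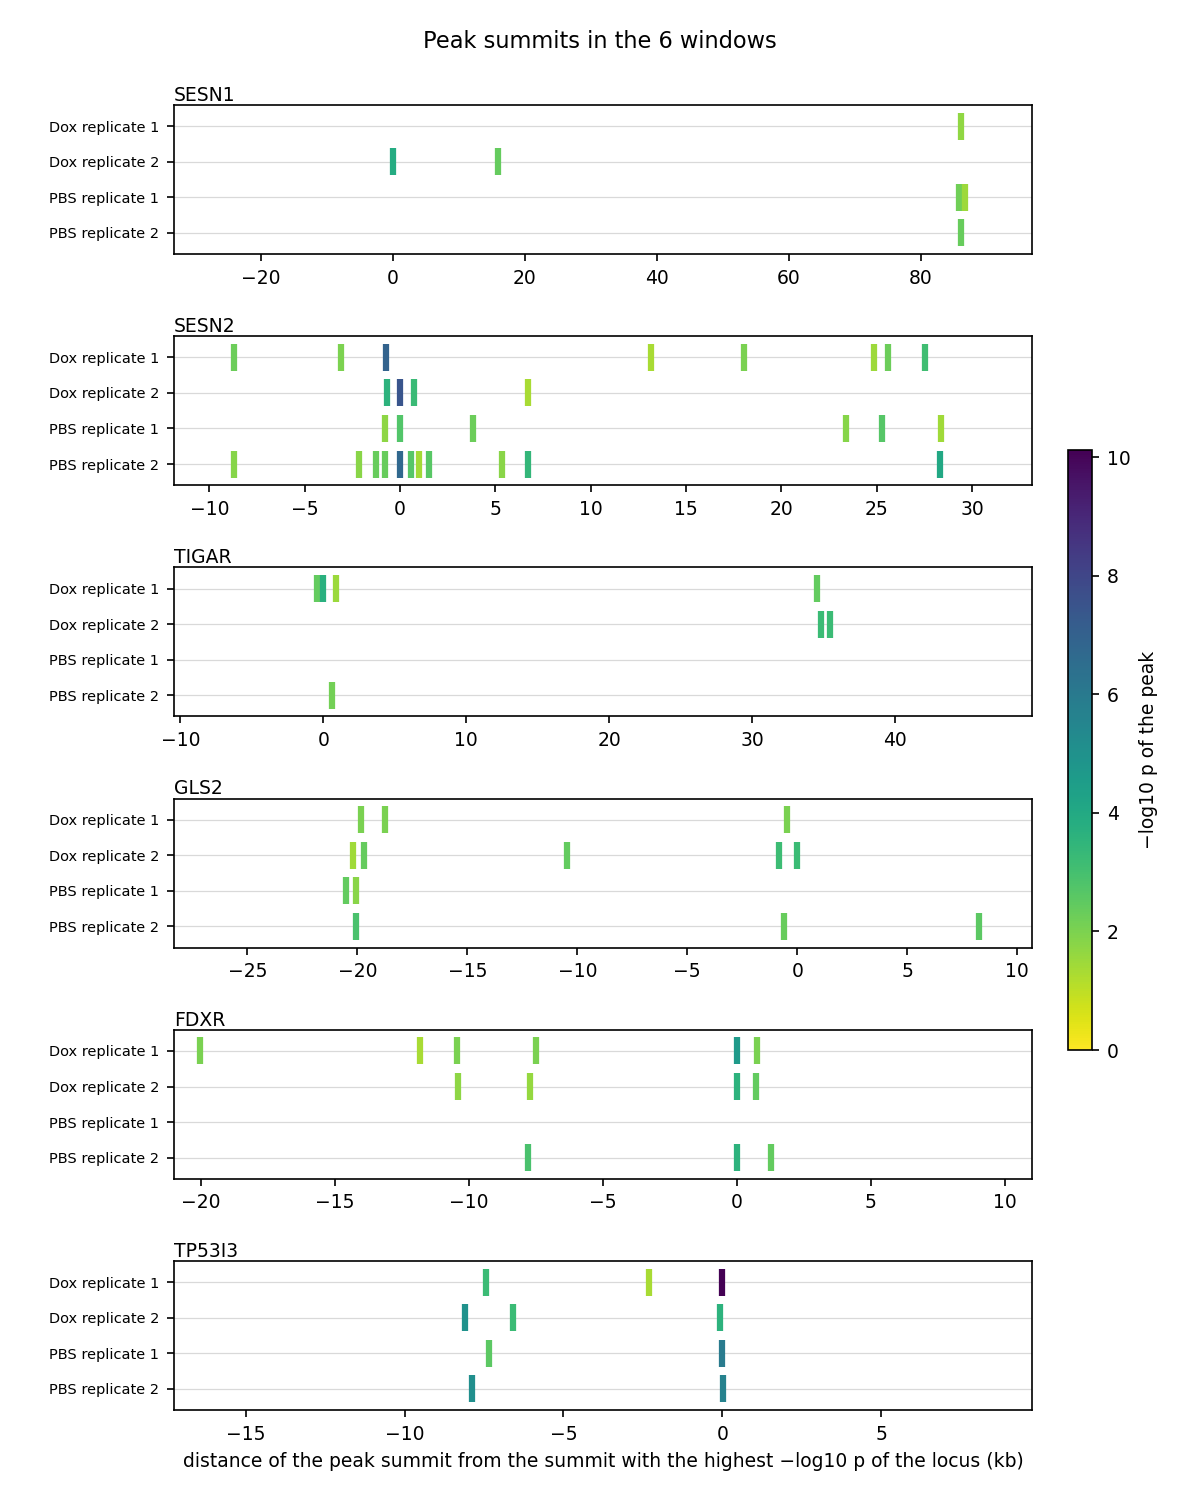
Peak summits in each window, 1 row per library, by distance in kb from the summit with the highest −log10 p of that locus (horizontal axis). Colour gives the −log10 p of the peak, which reached 10.1 at TP53I3 in Dox replicate 1.

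At TP53I3, the oxidoreductase gene, a site at chr2:24306926-24307693 carried a peak in all 4 libraries. Its fold enrichment was 6.90 and 3.28 with Dox (replicates 1 and 2) and 4.69 and 4.05 with PBS. The −log10 p was 10.1, 3.62, 5.95 and 5.63 in the same order. As listed, the values of both PBS libraries fell between those of the Dox libraries. By p, the peak ranked 331 of 46658 and 2763 of 16642 in the Dox lists, and 291 of 11304 and 1264 of 22978 in the PBS lists. Its q was at most 0.05 in Dox replicate 1 and PBS replicate 2, with a −log10 q of 5.48 and 1.49. In PBS replicate 1 the −log10 q of 1.26 lay just under the threshold of 1.3. The 4 summits fell within 98 bp of each other, at 24307254 and 24307188 for Dox and at 24307260 and 24307286 for PBS.

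At 2 other sites of the TP53I3 window a peak was called in both conditions, but only in the libraries of 1 replicate number. A site at chr2:24299053-24299559 had a peak in the libraries of replicate number 2 alone, with 4.09-fold enrichment in Dox and 4.39-fold in PBS, and −log10 p of 4.97 and 5.13. A neighbouring site at chr2:24299761-24300036 had a peak in the libraries of number 1 alone, with 3.03-fold enrichment in Dox and 3.01-fold in PBS, and −log10 p of 3.23 and 2.56. The sites were 201 bp apart. The remaining 2 sites of the window each had a peak in 1 Dox library.

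SESN2, the sestrin gene, held 18 of the 42 sites, and 1 of them, at chr1:28585484-28587153, had a peak in all 4 libraries. The peak with the smallest p there was enriched 5.28-fold and 5.31-fold with Dox (replicates 1 and 2), and 2.85-fold and 5.06-fold with PBS. The −log10 p was 6.92, 7.46, 2.74 and 6.74 in that order. As listed, the value of PBS replicate 1 was the lowest of the 4. The q was at most 0.05 in the other 3 libraries, with a −log10 q of 2.65, 2.88 and 2.44, and the −log10 q was 0 in PBS replicate 1.

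The SESN2 site was a pair of peaks in most lists. One group of summits, 1 from each library, lay within 100 bp, between 28586057 and 28586157. A second group lay 686 bp further on, with summits at 28586854 in Dox replicate 2 and at 28586843 in both PBS libraries, a span of 11 bp. The second peak was the stronger of the pair in these 3 libraries: in Dox replicate 2 the −log10 p was 3.62 for the first and 7.46 for the second, in PBS replicate 1 it was 1.72 and 2.74, and in PBS replicate 2 it was 2.34 and 6.74. Dox replicate 1 had a single peak of 1447 bp over both positions, with its summit at 28586128 in the first group. PBS replicate 2 also had a separate peak at the edge of the site, at chr1:28585484-28585758, of 2.62-fold.

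The other SESN2 sites were weaker, and 4 of them had a peak in 2 libraries. The site at chr1:28587344-28587686 had 3.05-fold enrichment in Dox replicate 2 and 2.81-fold in PBS replicate 2. At chr1:28593473-28593743 the same libraries had 2.10-fold and 3.29-fold. The site at chr1:28577960-28578275 had 2.46-fold in Dox replicate 1 and 2.17-fold in PBS replicate 2. At chr1:28614809-28615319 PBS replicates 1 and 2 had 1.99-fold and 3.64-fold and neither Dox library had a peak. The remaining 13 SESN2 sites had a peak in 1 library each.

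FDXR, the ferredoxin reductase gene, had its strongest site at chr17:72868582-72870430, with a peak in 3 libraries. The enrichment was 4.10-fold in Dox replicate 1, 3.06-fold in Dox replicate 2 and 3.22-fold in PBS replicate 2, and the −log10 p was 4.66, 3.62 and 3.62. The 3 summits lay within 26 bp, at 72868995, 72868989 and 72869015. Each of these libraries had a further peak in the same site, of 2.32-fold, 2.95-fold and 2.67-fold. A site at chr17:72861008-72861543, 7.0 kb away, had peaks in the same 3 libraries, of 2.62-fold, 2.25-fold and 2.80-fold. The site at chr17:72858390-72858741 was called with Dox in each replicate and with PBS in none, with 2.62-fold and 2.46-fold enrichment and −log10 p of 2.03 and 1.71. None of the FDXR peaks reached a q of 0.05, and the highest −log10 q was 0.780, in Dox replicate 1. PBS replicate 1, with the shortest list of 11304 peaks, had no FDXR peak.

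GLS2, the glutaminase gene, had a site in all 4 libraries at chr12:56861973-56862745, with small values in each. At the peak with the smallest p in each library the enrichment was 2.47-fold and 2.93-fold with Dox (replicates 1 and 2). With PBS it was 2.24-fold and 2.97-fold, and the −log10 p of these 4 peaks ran from 1.80 to 2.89. The 2.93-fold peak, at chr12:56862526-56862745, shared no base with either PBS peak. Another peak of Dox replicate 2, at chr12:56862110-56862312, overlapped both PBS peaks, with 2.07-fold enrichment, a −log10 p of 1.45 and its summit at 56862149. Leaving that weaker peak aside, the summits of the other 4 were spread over 375 bp. A site 18.5 kb away, at chr12:56881237-56882519, had a peak of 2.32-fold in Dox replicate 1, of 3.44-fold in Dox replicate 2 and of 2.38-fold in PBS replicate 2. The summits of these peaks lay up to 614 bp apart. Dox replicate 2 had another peak in that site, of 3.25-fold with a −log10 p of 3.18 and its summit at 56881503. Every GLS2 peak had a −log10 q of 0.

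TIGAR, the phosphatase gene, had 5 sites, none in more than 2 libraries. At chr12:4430277-4431106 the enrichment was 3.51-fold in Dox replicate 1 and 2.47-fold in PBS replicate 2, with −log10 p of 3.71 and 2.16 and summits 575 bp apart. At chr12:4464918-4465315, 33.8 kb further on, a peak was called with Dox in each replicate and with PBS in none, of 2.77-fold in replicate 1 and 3.11-fold in replicate 2, with −log10 p of 2.44 and 3.21. Their −log10 q was 0.

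SESN1, in the longest window, had 1 or 2 peaks per library, and 6 over the 4 libraries together, beside 7 at TIGAR. The site at chr6:109415816-109416933 was enriched 2.17-fold in Dox replicate 1, and 2.64-fold and 2.38-fold in the PBS replicates, with no peak in Dox replicate 2. The −log10 p was 1.68, 2.20 and 2.34, with summits at 109416262, 109415911 and 109416268 in that order. PBS replicate 1 had another peak in the site, of 2.34-fold with its summit at 109416875. Dox replicate 2, with no peak in that site, had peaks at chr6:109330015-109330236, of 3.24-fold with a −log10 p of 3.90, and at chr6:109345990-109346192, of 2.60-fold. The first of these is 85.6 kb from the site of the other libraries and ranked 2579 of 16642 by p.

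**Figure D3:**
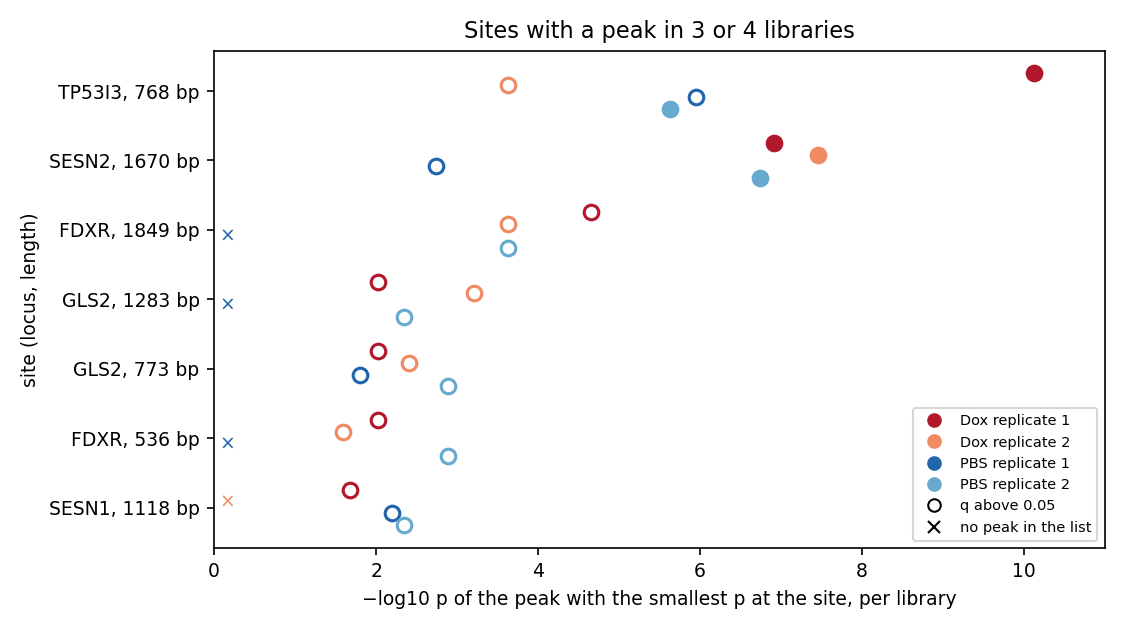
The 7 sites with a peak in 3 or 4 libraries (vertical axis, locus and length in bp) by the −log10 p of their strongest peak in each library (horizontal axis). Filled points have q of at most 0.05 and crosses mark a library with no peak. The TP53I3 site reached 10.1 and the SESN2 site 7.46, and the other 5 stayed at or under 4.66.

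The share of sites found in all 4 libraries was close to that of sites elsewhere. A peak in all 4 libraries was found at 3 of 42 sites (7.14%), 1 each at TP53I3, SESN2 and GLS2, against 6.01% of all sites. Exclusive to the Dox pair of libraries were 2 sites (4.76%), at TIGAR and FDXR, against 3.11% of all sites. Exclusive to the PBS pair was 1 site (2.38%), at SESN2, against 0.928%. The libraries of replicate number 2 alone shared 3 sites, 1 at TP53I3 and 2 at SESN2, and those of number 1 alone shared 1, at TP53I3, where 2.40% and 2.29% of all sites had these patterns. Sites in 1 library made up 61.9% of the 42, against 72.5% of all, those in 2 libraries 21.4% against 14.1%, and those in 3 libraries 9.52% against 7.47%. The patterns exclusive to 1 pair of libraries rest on 1 to 3 sites each. The 26 sites of 1 library had 1.98-fold to 3.24-fold enrichment, and 12 of them came from Dox replicate 1, 5 each from Dox replicate 2 and PBS replicate 2, and 4 from PBS replicate 1. Sites of Dox replicate 1 alone thus made up 28.6% of the 42, against 48.5% of all sites. For Dox replicate 2 the shares were 11.9% and 7.44%, for PBS replicate 1 they were 9.52% and 3.30%, and for PBS replicate 2 they were 11.9% and 13.3%.

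**Figure D4:**
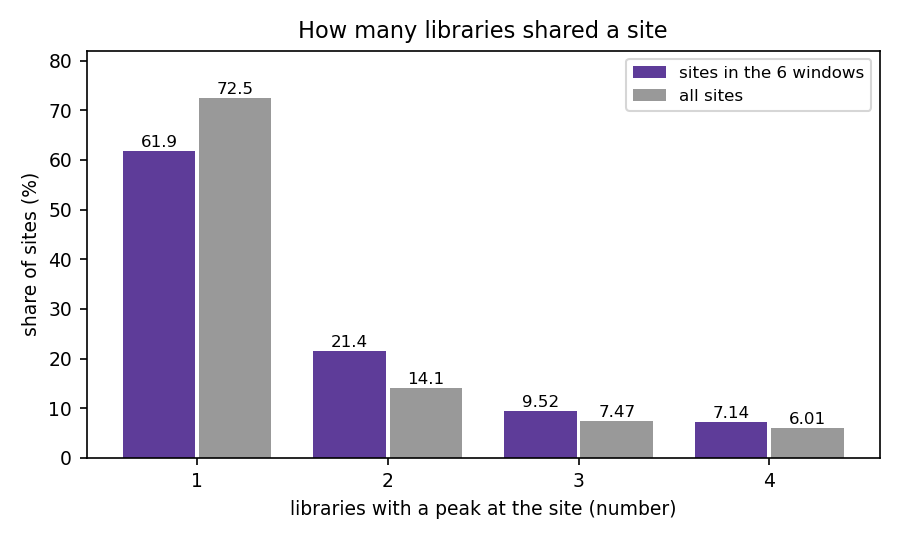
Share of sites in per cent (vertical axis) by the number of libraries with a peak (horizontal axis), for the 42 sites in the 6 windows and for all 63890 sites. In both sets most sites came from 1 library, 61.9% and 72.5%.

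The authors' tables of peaks matched between replicates listed 8 Dox pairs at 5 of the loci and 6 PBS pairs at 4 of them. The irreproducible discovery rate (IDR) of a pair tends to be low where both replicates rank a peak high and alike. An IDR of at most 0.05 was reached by 3 of the 8 Dox pairs, where 27.5% of all Dox pairs reached it, and by 1 of the 6 PBS pairs (15.0% of all). The TP53I3 site passed in both conditions, with an IDR of 0.000374 for Dox and 0.0119 for PBS. The SESN2 site had an IDR of 0.00632 for Dox. That pair spanned both groups of summits, with the 2 peaks of Dox replicate 2 averaged. For PBS the peaks were paired apart, with 0.128 at the second peak and 0.496 at the first. The Dox and PBS values at SESN2 are thus not of like pairs. The FDXR pair at the strongest site had an IDR of 0.109 for Dox. The GLS2 site had an IDR of 0.0163 for Dox, again with 2 peaks of Dox replicate 2 averaged, and 0.498 for PBS. The pairs limited to Dox had high values, 0.514 at TIGAR and 0.557 at FDXR, and the pair limited to PBS, at SESN2, had 0.639. High values also occurred at sites called in both conditions, such as 0.575 for Dox at FDXR and 0.557 for PBS at SESN1.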

How the data were processed

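p53 ChIP-seq peak lists of 4 libraries of 293T cells were used, 2 per condition. The tools were BWA and MACS2 and the build hg19, per the submitters' processing notes, with no versions stated there. The authors called peaks per library at p under 0.05, per the peak names. The deposited lists give a fold enrichment, a ratio, and −log10 p and −log10 q per peak. The authors' tables of matched pairs hold −log10 p per replicate, an IDR (a q-value) and, per the file headers, a local IDR (a fraction, not used here). Where several peaks of a replicate entered a pair, the deposited −log10 p is their mean, checked for 100.0% of pairs. Depth is not given, so precision rests on 2 libraries per condition.

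Peaks overlapping a window by 1 bp or more were kept, and peaks of the 4 lists sharing 1 bp or more were merged into sites. Counts per library were compared by exact permutation. As replicate numbers mark passages, differences within numbers are given. Overlap, site and motif steps were tested on simulated data. Every site with a peak in 2 or more libraries or q of at most 0.05 is given. Its values are of the peak with the smallest p in each library unless another peak is named. The members and lists were chosen with earlier results of these data known. Python 3.11.15, numpy 2.4.6, pandas 2.3.3 and matplotlib 3.10.9 were used.

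No genome or annotation of hg19 was used here. The planned motif search in peaks was therefore replaced by RefSeq promoters, and the planned count of peaks at other metabolic targets was not made. A p-value here reflects only the variation among these 4 samples, which includes passage. Alternatives were a q of at most 0.05, equal list lengths, stricter overlaps, the replicate block, leaving out libraries, an IDR limit and other motif settings.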

Additional observations from a re-analysis of the deposited data

Results flagged for a closer look

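The difference in peak number over the 6 windows had opposite signs in the replicate numbers. The Dox count exceeded the PBS count by 13 at number 1 (passage 3), and the difference was -1 at number 2 (passage 5). With 1 library of each condition per number, this contrast was not tested. The whole lists differed in the same directions, with 46658 against 11304 peaks within number 1 and 16642 against 22978 within number 2. With lists of equal length, an alternative chosen after seeing the data, both signs turned: the difference was -6 at number 1 and 7 at number 2.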

How the results depend on the processing

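The difference in peaks per library between Dox and PBS, 6, was 0.5 with only peaks of q at most 0.05 or with equal list lengths, and 6 with stricter overlap with the window. With the replicate number as a block it was 6 (exact sign flips, p = 1; 2 pairs). Within number 2 it was -1. With equal list lengths, added after seeing the data, it was -6 within number 1 and 7 within number 2. Leaving out 1 library gave 1.5 (without PBS replicate 1) to 10.5 (without PBS replicate 2). The difference in loci with a peak, 1, was 0 within number 2 and 0 to 2 without 1 library, 0 being without PBS replicate 1; with the block it was 1.

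Equal list lengths changed the sites by pattern: 0 in both Dox and no PBS library, 2 in both PBS and no Dox library, and 27 sites in all. With q of at most 0.05 there were 2 sites, of which 0 were in every library, 0 exclusive to Dox and 0 exclusive to PBS. Without 1 library, sites in every remaining library numbered 3 to 6, those exclusive to Dox 2 to 14, those exclusive to PBS 1 to 6, and all sites 32 to 40. An IDR limit of 0.05 left 3 Dox pairs and 1 PBS pair. With up to 2 mismatches 1 promoter matched, against 3. Of 56 alternative values 35 kept the sign of the difference or, for counts, lay within 1.5 times the reported count. The cause of the other changes was not tested. The motif in whole peaks and the peaks at other genes were not run.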

Other observations

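The lowest IDRs at these loci belonged to the Dox pairs at TP53I3 and SESN2 and the PBS pair at TP53I3, given above. A pair of weak peaks came next. This Dox pair, at GLS2, had −log10 p of 2.03 and 1.92 and an IDR of 0.0163, while the Dox pair at the strongest FDXR site had 4.66 and 3.62 and an IDR of 0.109. Over all loci of the series, 297 of 2416 Dox pairs with an IDR of at most 0.05 (12.3%) and 179 of 937 such PBS pairs (19.1%) had a −log10 p under 3 in both replicates.

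Many peaks shared 1 value of p. In Dox replicate 1, 8 of the 25 peaks in the windows had a −log10 p of 2.03, as had 21.8% of that whole list, and in Dox replicate 2, 4 of the 20 had 3.21, as had 9.98% of the list. Ranks by p among such peaks are therefore ties.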
